A study of Mus musculus with 5 samples.

Results

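The genes described here, all but Mrps36, encode proteins of the mitochondrial ribosome and were measured in the mouse retina. They were chosen by name: a row of the deposited gene count table was a member if its Ensembl mouse ID mapped to a protein-coding symbol that starts with Mrpl or Mrps followed by a number. The rule found 77 members among 43432 rows, 48 with Mrpl symbols for the large subunit and 29 with Mrps symbols for the small subunit, and it used no measured value. It left out 5 pseudogene rows, of which Mrpl23-ps1 held the most counts (259 over the 5 libraries). Mrpl33 was not analysed here.

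Mitochondria carry ribosomes of their own, which translate the few proteins encoded by mitochondrial DNA, all of them core subunits of the oxidative phosphorylation complexes. The RNA of these ribosomes is transcribed inside the organelle, whereas every one of their proteins is encoded in the nucleus, made in the cytosol and imported. Some of the proteins descend from bacterial ribosomal proteins and others have no bacterial counterpart. Photoreceptors are rich in mitochondria and among the cells with the highest energy use in the body.

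Whole mouse retina was profiled by poly(A) RNA sequencing, with 3 controls, lettered a, b and c, set against 2 libraries whose titles read Mettl14 cko, lettered a and b. Mettl14 is a subunit of the methyltransferase that places N6-methyladenosine on RNA, with Mettl3 as its catalytic subunit. The name of the deposited table gives the age, postnatal day 7, and carries the symbol Six3 and an abbreviation that the labels do not explain. The labels name no allele, Cre driver, strain or sex for either group, and do not say whether each library came from a separate animal, so the p-values measure the spread between these libraries only.

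Libraries held 24315693 to 27100918 counts. Mettl14 stood at 41.5, 46.7 and 38.7 CPM, a unit that divides each count by the scaled total of its library, in controls a, b and c and at 55.6 and 44.8 CPM in cko a and b. The groups overlapped (log2 fold change 0.25, SE 0.20, adjusted p = 0.640, edgeR quasi-likelihood test), so the gene-level count does not show the label. A count over the whole gene would include exons that a deletion leaves in place, and single exons were not tested. Mettl3 stood at 72.4, 71.3 and 66.0 CPM in the controls and at 65.6 and 52.0 CPM in the libraries labelled cko (log2 fold change -0.25, SE 0.19, adjusted p = 0.615, edgeR). Both libraries labelled cko lay below every control for Mettl3, as in 13.7% of all genes tested, with cko a close to control c. All 12 retinal marker genes had counts in every library, and their summed level was 13084, 10968 and 14103 CPM in controls a, b and c and 12167 and 8989 CPM in cko a and b.

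Start regions of 5 members are shown because these genes span the range of differences between the groups, from Mrps2, the highest in the libraries labelled cko, to Mrps16 and Mrps14 at the lower end, with the abundant Mrpl41 and the ribosome-rescue gene Mrpl58 between them. Each is the 150 bases before a RefSeq start on the strand of the gene, from the table of RefSeq promoters on GRCm38.p6, and touches no annotated exon. Capitals mark a match to a promoter motif on either strand.
Mrps2: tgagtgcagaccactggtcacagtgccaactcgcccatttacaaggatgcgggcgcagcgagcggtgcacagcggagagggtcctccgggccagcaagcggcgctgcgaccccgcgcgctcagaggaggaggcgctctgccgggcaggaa
Mrps16: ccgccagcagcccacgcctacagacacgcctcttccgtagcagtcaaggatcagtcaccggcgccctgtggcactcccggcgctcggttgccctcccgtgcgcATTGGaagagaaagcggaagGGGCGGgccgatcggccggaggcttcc
Mrps14: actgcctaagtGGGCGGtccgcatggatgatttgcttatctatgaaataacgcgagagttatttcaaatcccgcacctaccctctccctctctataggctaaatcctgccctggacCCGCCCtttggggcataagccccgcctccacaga
Mrpl41: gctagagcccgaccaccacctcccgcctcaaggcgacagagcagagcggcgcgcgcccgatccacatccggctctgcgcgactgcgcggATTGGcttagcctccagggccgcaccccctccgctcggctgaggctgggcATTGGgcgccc
Mrpl58: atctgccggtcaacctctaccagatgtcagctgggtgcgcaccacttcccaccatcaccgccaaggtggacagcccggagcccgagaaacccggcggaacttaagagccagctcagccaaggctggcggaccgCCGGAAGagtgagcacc

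The Mrps2 stretch lies at chr2:28467916-28468065 on the plus strand and held none of the motifs. The Mrps16 stretch lies at chr14:20393635-20393784 on the minus strand. It held 1 SP1 motif, which starts 27 bases before the RefSeq start used, and 1 CCAAT box on the opposite strand. RefSeq gives Mrps16 a further start, whose stretch, at chr14:20393491-20393640, touches an annotated exon and held 1 ETS motif. The Mrps14 stretch lies at chr1:160195065-160195214 on the plus strand and held an SP1 motif on each strand. The Mrpl41 stretch lies at chr2:24975099-24975248 on the minus strand and held 2 CCAAT boxes on the opposite strand. The Mrpl58 stretch lies at chr11:115403602-115403751 on the plus strand and held 1 ETS motif, 17 bases before the start.

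RefSeq promoters of 250 bases before to 50 bases after the start were matched for 68 of the 77 members. Motifs were searched on both strands as fixed letters. The ETS core CCGGAAG, bound by GABP, a regulator of nuclear genes for mitochondrial proteins, was present in 25 of the 68 (36.8%), against 18.2% of the 11293 protein-coding genes with a promoter that passed the low-count filter. The YY1 motif was present in 12 (17.6%, against 4.74%) and the palindromic NRF1 motif in 3 (4.41%, against 2.15%). The SP1 motif GGGCGG was present in 34 (50%, against 67.3%), CCAAT in 26 (38.2%, against 42.6%) and TATAAA in 5 (7.35%, against 8.93%). ETS and YY1 letters were thus more frequent among these promoters than in the comparison set, and SP1 letters less frequent. Members with the ETS motif had a median log2 fold change of -0.20 (24 tested) and those without it -0.27 (43 tested). For YY1 the medians were -0.15 (12 tested) and -0.25 (55 tested). A match describes the letters and does not show binding.

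In the controls, almost every member was expressed, at levels that spanned a wide range. Per kilobase of exon, which allows levels of different genes to be compared, Mrpl49, a large-subunit protein with no bacterial counterpart, had the highest level at 163 ± 27.5 CPM per kb (SD, n = 3), with 167, 134 and 188 in controls a, b and c. Mrpl41 followed at 127 ± 39.1 CPM per kb and Mrpl2, the counterpart of the bacterial protein next to the catalytic centre, at 97.7 ± 4.06 CPM per kb. Mrps21 (96.9 ± 21.7), Mrps24 (58.6 ± 15.1) and Mrps28 (58.6 ± 16.4 CPM per kb) had the highest levels among genes with Mrps symbols.

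At the lower end stood Mrpl17 (4.16 ± 0.321), Mrpl19 (2.65 ± 0.167) and Mrps30 (2.53 ± 0.285 CPM per kb). Exon length enters these values: the merged exons of Mrpl49 cover 1876 bases and those of Mrps30 cover 6666. In the ordered list the control values of 74 of the 76 neighbouring pairs overlapped, and the exceptions were Mrpl17 with Mrpl19 and Mrps30 with Mrpl53. The order is therefore a broad gradient with few resolved steps.

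**Figure D1:**
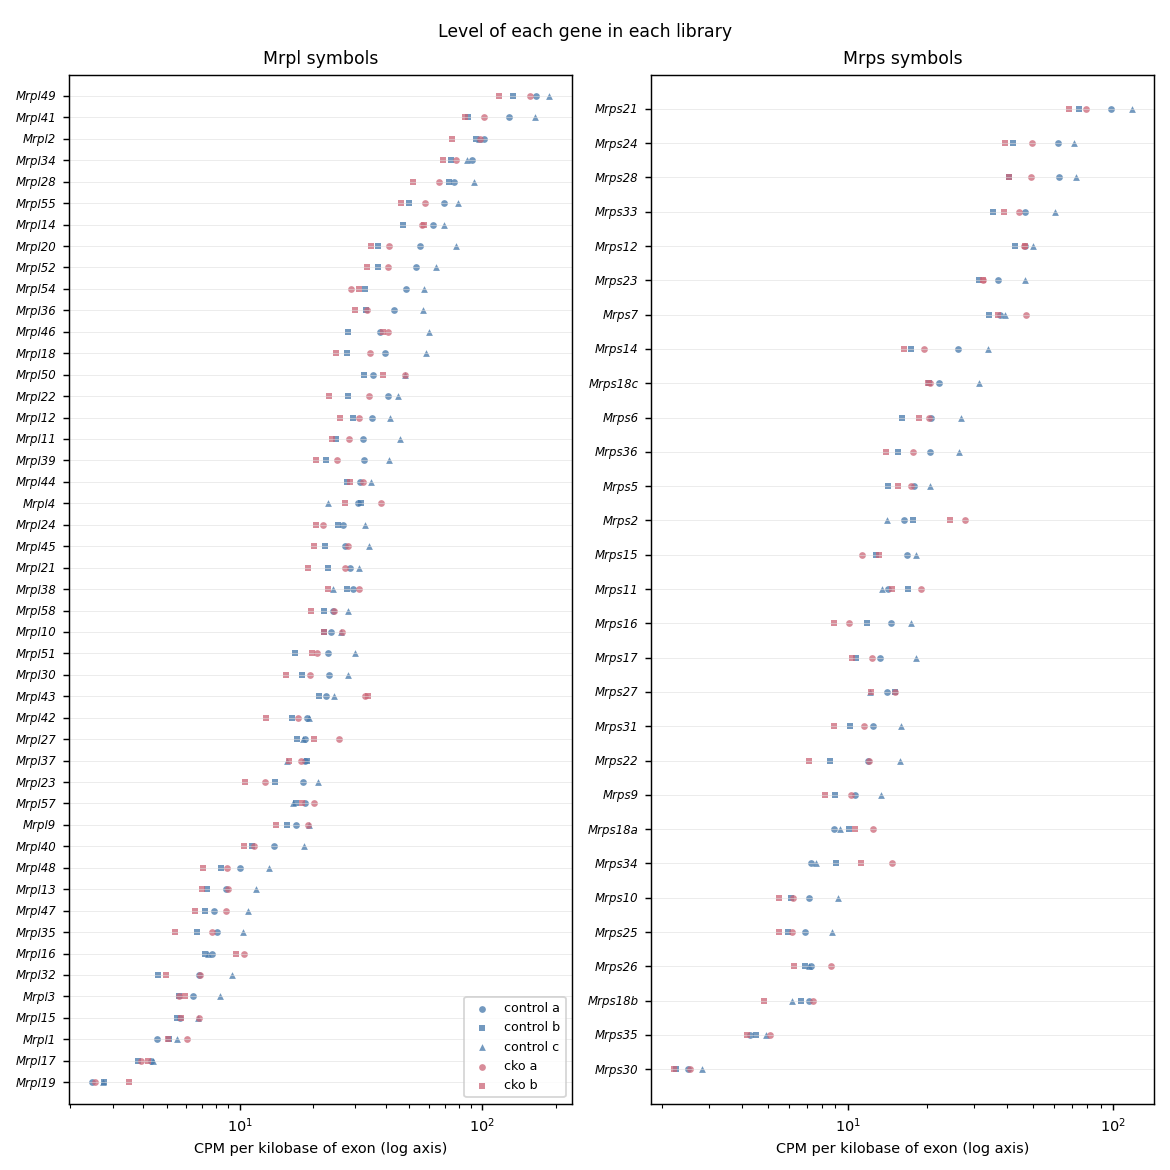
Level of members in each of the 5 libraries in CPM per kilobase of exon on a log axis. Mrpl and Mrps symbols are in separate panels, ordered by control mean. Control means run from 163 CPM per kb for Mrpl49 to 2.53 for Mrps30, and Mrpl53, with a control mean of 0.0337, is not drawn.

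Mrpl53, on the large subunit, had counts of 0, 1 and 1 in controls a, b and c and 0 in both libraries labelled cko, and was the 1 member that failed the low-count filter. Of its exon bases, 88.0% are shared on the same strand with the protein-coding gene Gm42688, which held 990 counts over the 5 libraries. Reads over bases shared by annotated genes may be left out or assigned to either gene, and the sources used here do not give the setting, so the low count does not measure expression of Mrpl53. Across the members, exons of 23 overlap another protein-coding gene, 20 of them one on the opposite strand, and without a stated strand setting reads from the 2 strands cannot be told apart.

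Between the groups, most members were slightly lower in the libraries labelled cko, and none differed beyond the test's threshold. Of the 76 members tested, 57 had a log2 fold change below 0, against 50.9% of the 17039 genes tested. The median was -0.22, with quartiles of -0.39 and -0.01, and the median of all genes tested was -0.01. The values ran from -0.63 for Mrpl54 to 0.70 for Mrps2. In whole retina, fewer cells of a type and less RNA per cell cannot be told apart.

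At an adjusted p under 0.05 in edgeR's quasi-likelihood test, 0 members were called higher, where 0.00587% of all genes tested were, and 0 were called lower, where 0.0939% were. The lowest adjusted p was 0.408, for Mrps2. DESeq2 also called 0 members, where it called 0.185% of all genes higher and 0.34% lower, and limma-voom called 0, with 16 calls among all 17039 genes. At an unadjusted p under 0.05 in edgeR, 3 members were higher and 3 were lower, against 5.45% and 5.36% of all genes tested. The groups did not overlap in 6 members higher in cko and 5 lower, against 15.8% and 13.7% of all genes tested. The shares of members were 7.89% and 6.58%, both under the background.

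**Figure D2:**
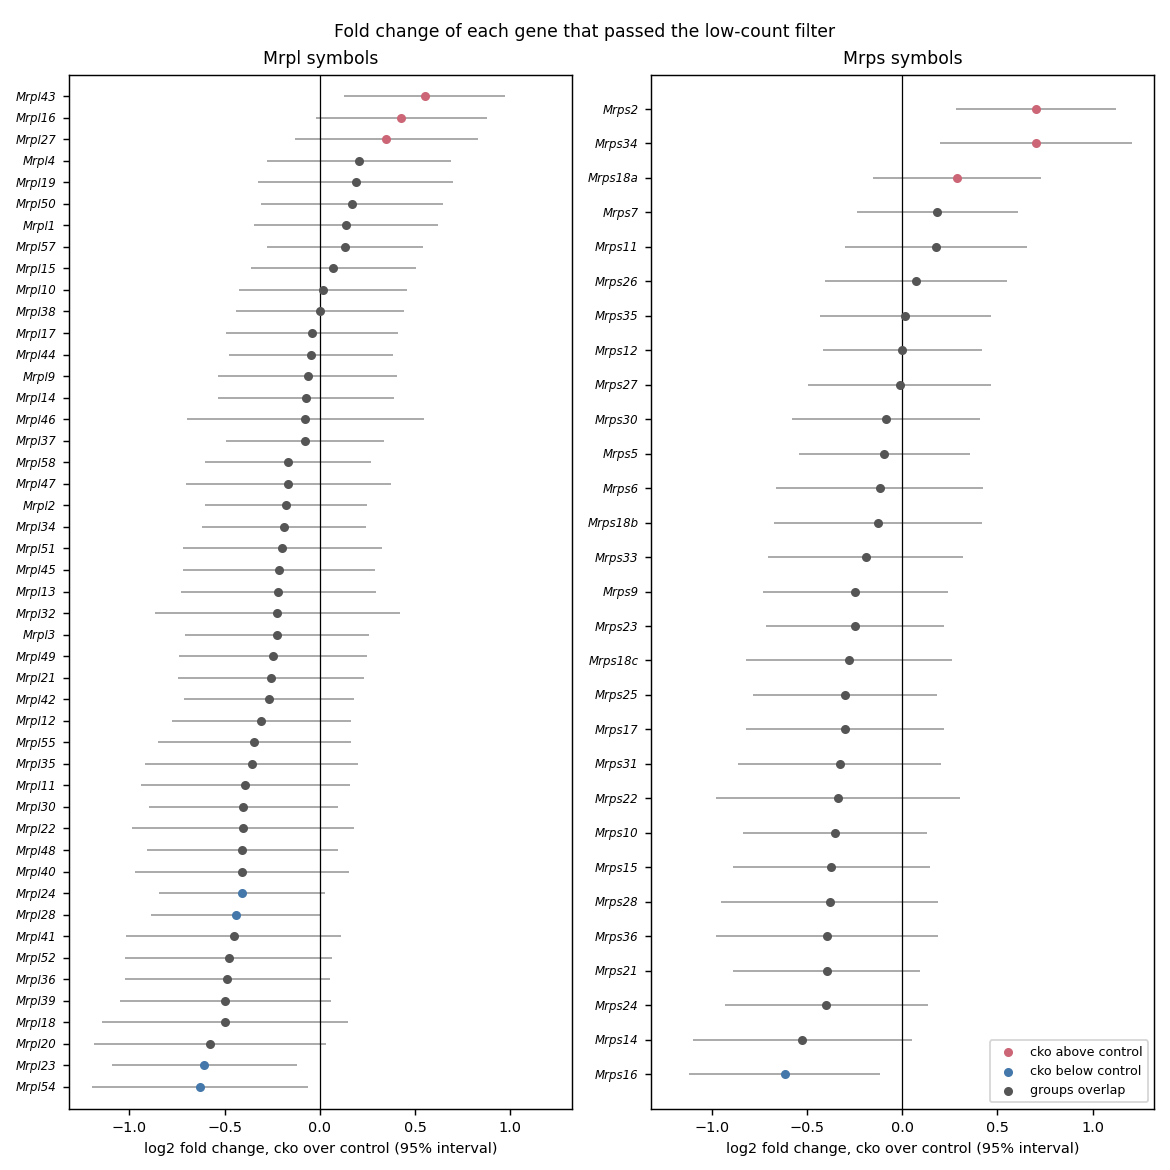
Log2 fold change, libraries labelled cko over control, for each of the 76 members tested, with 95% confidence intervals from edgeR. Points run from -0.63 to 0.70, and 57 of them lie below 0.

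The large and the small subunit had nearly the same values. The 47 tested members with Mrpl symbols had a median of -0.22, with 36 below 0 (76.6%), and the 29 with Mrps symbols a median of -0.25, with 21 below 0 (72.4%). Some symbols do not match the location of the protein, since Mrps18a and Mrps30 belong to the large subunit, and 5 further proteins of the ribosome carry other symbols. Mrps36 is not a subunit of the ribosome and was left out when the genes were placed by location. The medians were then -0.22 for 50 genes of the large and -0.23 for 30 of the small subunit. Members with a bacterial homologue (45) had a median of -0.25 and the 30 tested without one -0.18, again without Mrps36. In this split Mrps18a and Mrps18b, though related to a bacterial protein, were counted among those without one.

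The libraries within each group differed among themselves in a pattern that most members shared. As a share of all counts, the members held 0.446%, 0.387% and 0.493% in controls a, b and c and 0.423% and 0.383% in cko a and b. Control c was therefore highest, cko b lowest, and control b close to cko b. Control c was the highest of the controls in 60 of 76 members (78.9%, against 39.4% of all genes tested) and control b the lowest in 63 (82.9%, against 38%). Library cko b was below cko a in 68 members (89.5%, against 53.4%) and was the lowest of all 5 libraries in 44 (57.9%, against 24%).

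On the log2 scale, the median member lay 0.01 above, 0.26 below and 0.27 above the control mean in controls a, b and c, and 0.07 and 0.37 below it in cko a and b. The distance between controls b and c, on opposite sides of the control mean, exceeded the distance of either library labelled cko from that mean. Measured from the mean itself, cko b lay farther (0.37) than any control did (at most 0.27). Library cko a lay nearer to it (0.07) than controls b and c. By subunit, the median differences for Mrpl genes were 0.03, -0.25, 0.25, -0.07 and -0.38 in the 5 libraries, and those for Mrps genes 0.01, -0.28, 0.30, -0.07 and -0.26. Control c was highest for both, and the lowest library was cko b for Mrpl genes and control b, by a small margin, for Mrps genes.

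**Figure D3:**
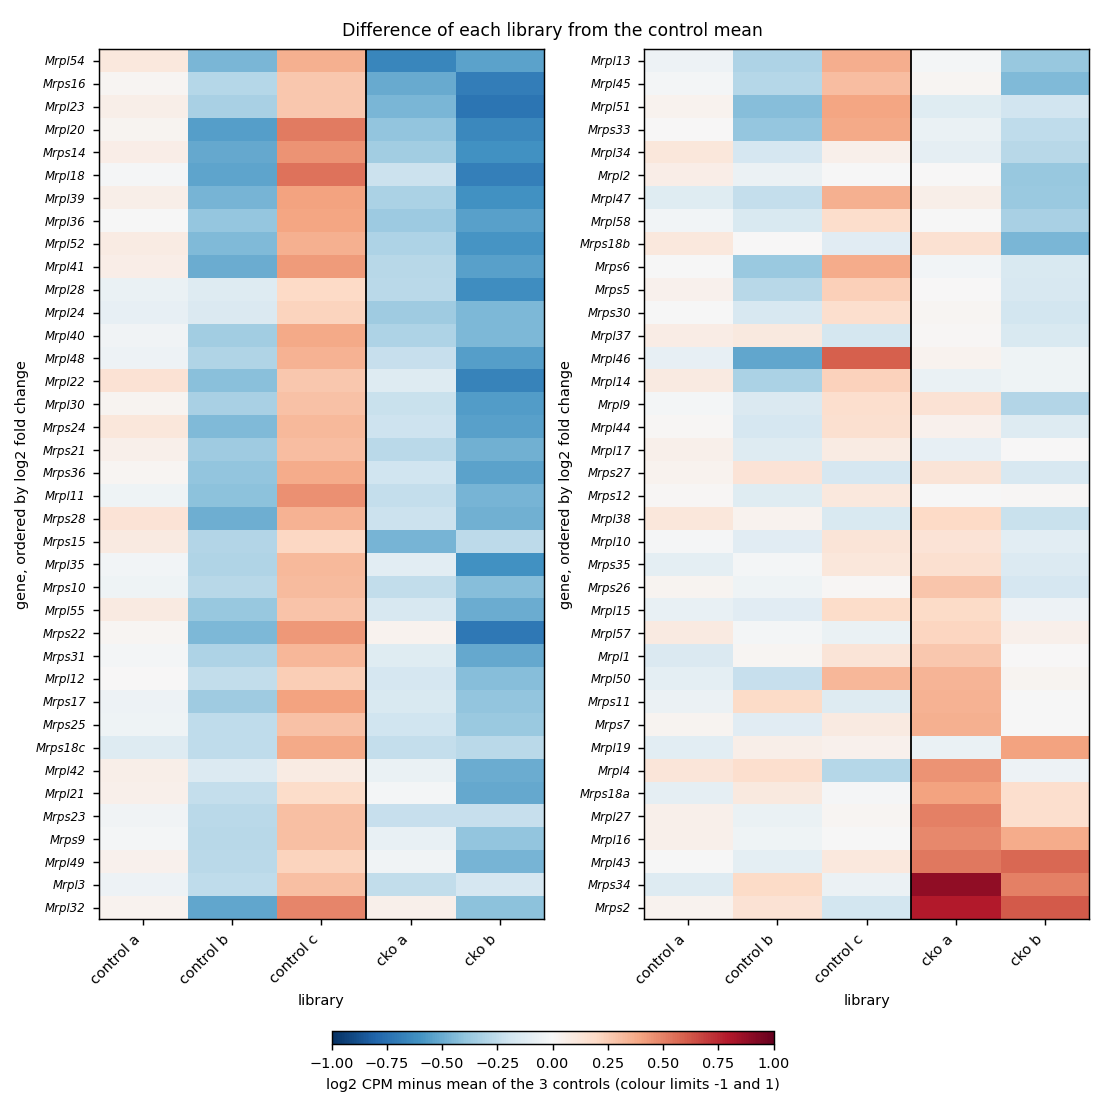
Log2 CPM of each tested member in each library minus the mean of the 3 controls, with members ordered by fold change. Control c is red and control b blue for most members, and cko b is below cko a in 68 of 76.

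The group values moved with single libraries, so the result was also read without them. Without control b, the medians were -0.35 for Mrpl and -0.37 for Mrps genes, and 22 members were lower at an unadjusted p under 0.05, against 8.99% of all genes. Without cko b, the medians were -0.07 and -0.09 and 0 members were lower by that measure, against 9.10%. Without control c the medians were -0.15 and -0.10, with 2 members lower against 3.54% of all genes, and without cko a they were -0.41 and -0.29, with 3 lower against 3.96%. In each case 0 members passed the adjusted threshold in edgeR.

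Several measures moved together with the members' library pattern. The genes encoded in mitochondrial DNA lay at median log2 differences of -0.11, -0.27, 0.44, -0.06 and -0.52 from the control mean in controls a, b and c and cko a and b, and genes of mitochondrial protein import at 0.02, -0.22, 0.22, -0.03 and -0.31. Both lists were highest in control c and lowest in cko b, but in the genes of mitochondrial DNA cko a lay above control a, unlike in the members. The retinal markers, at medians of 0.01, -0.09, 0.03, -0.01 and -0.12, were also highest in control c and lowest in cko b. Mitochondrial tRNA synthetases were highest in cko a and lowest in control c, at 0.01, 0.07, -0.10, 0.17 and -0.09. The median of all genes tested stayed within 0.01 of the control mean in every library.

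**Figure D4:**
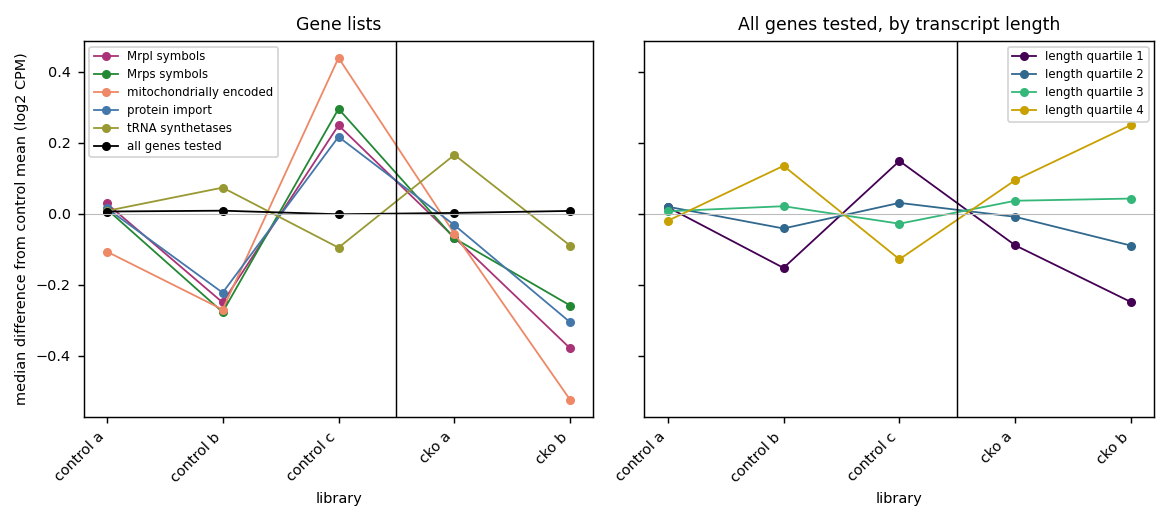
Median log2 CPM minus the control mean in each library, for the members of each subunit, for related mitochondrial gene lists and for all genes tested. Mrpl genes, import genes and genes of mitochondrial DNA are highest in control c and lowest in cko b, Mrps genes are highest in control c and lowest in control b (-0.28), and all genes tested stay near 0.

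Transcript length also moved with it. Members had a median transcript length of 1866 bases, against 3143 over all genes tested. Among all genes, those with the shortest transcripts (the lowest quartile, up to 1902 bases) had a median log2 fold change of -0.19, and those with the longest (the highest quartile, from 4633 bases) one of 0.16. The 39 members in the lowest quartile had a median of -0.26 and the 5 in the highest -0.22. Median library differences of all genes in the lowest quartile were 0.02, -0.15, 0.15, -0.09 and -0.25, in the same order as the members.

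With a smooth trend on length and GC content removed from each library, the medians were -0.16 for Mrpl and -0.10 for Mrps genes, 52 members were below 0, and 0 passed the adjusted threshold. In that fit 9 members were higher and 11 lower at an unadjusted p under 0.05, against 7.00% and 5.87% of all genes. The higher ones were Mrps2, Mrps34, Mrpl43, Mrpl27, Mrps18a, Mrps7, Mrps11, Mrps12 and Mrpl14. The lower ones were Mrpl23, Mrpl24, Mrpl30, Mrpl35, Mrpl39, Mrpl42, Mrpl48, Mrps10, Mrps14, Mrps16 and Mrps25.

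Markers of other tissues differed as well. The summed level of 5 lens genes was 632, 533 and 1183 CPM in controls a, b and c and 51.0 and 15.4 CPM in cko a and b. Summed blood genes (4) stood at 156, 360 and 423 against 114 and 37.6 CPM, skeletal muscle genes (4) at 13.7, 18.04 and 45.2 against 8.70 and 6.21 CPM, and pigment epithelium genes (4) at 174, 196 and 414 against 130 and 111 CPM. Each sum was highest in control c and lowest in cko b, and no marker was at 0 in any library. Myh6 and Ucp1, markers of heart and brown fat, summed to 0.533 to 0.859 CPM. The part of other tissues in the members' values was not tested.

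Against the direction of most members stood a few genes that were higher in the libraries labelled cko, none past the adjusted threshold. Coordinates of genes are those of GRCm38. Mrps2, a small-subunit protein with a bacterial counterpart (ENSMUSG00000035772, chr2:28468066-28471178), had 47.8, 51.4 and 41.0 CPM in controls a, b and c and 80.8 and 71.2 CPM in cko a and b. Both libraries labelled cko lay above every control. The means were 46.7 ± 5.29 (SD, n = 3) and 76.0 ± 6.77 CPM (n = 2). The log2 fold change was 0.70 (SE 0.19, 95% interval 0.28 to 1.12, edgeR adjusted p = 0.408). Over the other settings the log2 fold change ranged from 0.59 to 0.79 and the lowest adjusted p was 0.121.

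Mrps34, needed in mice for a stable small subunit (ENSMUSG00000038880, chr17:24895116-24897502), had 15.0, 18.6 and 15.6 CPM in the controls and 30.3 and 23.1 CPM in cko. The groups did not overlap, and cko a was the highest library (log2 fold change 0.70, SE 0.23, edgeR adjusted p = 0.433). Of its exon bases, 63.4% lie opposite exons of Mapk8ip3, whose log2 fold change was -0.22, and 37.0% are shared with Nme3, which had 0 counts. Without cko a its log2 fold change was 0.49, and with the length and GC trend removed it was 1.07.

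Mrpl43, on the large subunit and without a bacterial counterpart (ENSMUSG00000025208, chr19:45004829-45006442), had 34.4, 32.2 and 37.2 CPM in the controls and 49.96 and 51.4 CPM in cko. Its values were close within each group and did not overlap between groups (log2 fold change 0.55, SE 0.19, edgeR adjusted p = 0.433). Of its exon bases, 33.4% lie opposite Twnk, the mitochondrial DNA helicase, whose log2 fold change was 0.17.

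The other members with both cko libraries above every control were Mrpl16, Mrpl27 and Mrps18a. Mrpl16, the counterpart of a bacterial protein near the tRNA sites, had 24.4, 22.8 and 23.5 CPM in the controls and 32.9 and 30.5 CPM in cko (log2 fold change 0.43, SE 0.20, edgeR adjusted p = 0.472). Mrpl27 had 18.4, 16.97 and 17.98 CPM against 25.2 and 20.03 CPM, and Mrps18a 32.8, 37.4 and 34.6 against 46.1 and 39.2 CPM. Mrps18a is 1 of 3 mouse genes related to the same bacterial protein, and the other 2 did not share its direction. Mrps18b had a log2 fold change of -0.13 and Mrps18c one of -0.28, each with overlapping groups.

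**Figure D5:**
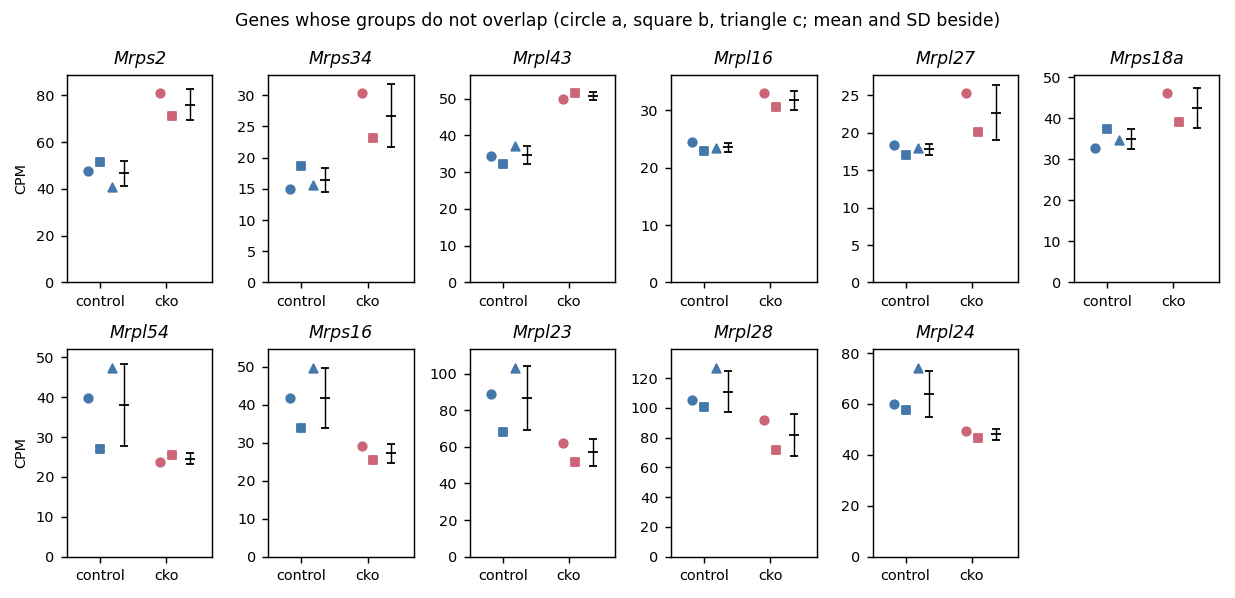
CPM in each library for the 11 members whose groups do not overlap, with the mean and SD of each group beside the points. The upper row holds 6 genes higher in the libraries labelled cko, led by Mrps2 at 80.8 and 71.2 CPM, and the lower row 5 genes lower in them.

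At the lower end, Mrpl23, the counterpart of a bacterial protein at the exit of the peptide tunnel (ENSMUSG00000037772, chr7:142532686-142540747), had 88.8, 68.2 and 103 CPM in controls a, b and c and 62.3 and 51.6 CPM in cko a and b. The groups did not overlap, with control b nearest to cko a (log2 fold change -0.61, SE 0.22, edgeR adjusted p = 0.433). Mrps16, a small-subunit protein with a bacterial counterpart (ENSMUSG00000049960, chr14:20389304-20393634), had 41.9, 34.0 and 49.8 CPM against 29.1 and 25.5 CPM (log2 fold change -0.62, SE 0.23, edgeR adjusted p = 0.436). It too was lower in both cko libraries than in any control, and its log2 fold change lay between -0.75 and -0.47 in every setting tried.

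Mrpl54, on the large subunit and without a bacterial counterpart (ENSMUSG00000034932, chr10:81264713-81266934), had 39.8, 26.99 and 47.4 CPM against 23.6 and 25.6 CPM. Its groups were separate by a small gap between control b and cko b (log2 fold change -0.63, SE 0.26, edgeR adjusted p = 0.443). With the length and GC trend removed its log2 fold change was -0.09. Mrpl28 had 105, 101 and 127 CPM against 91.8 and 71.6 CPM, and Mrpl24, also the counterpart of a tunnel-exit protein, 60.0, 57.5 and 74.2 against 49.6 and 46.6 CPM. Both had separate groups, with log2 fold changes of -0.44 and -0.41. With the length and GC trend removed, Mrpl28 was at -0.04 and Mrpl24 at -0.33.

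For several other members with large negative values, control b reached the level of the libraries labelled cko. Mrpl20, whose bacterial counterpart acts early in assembly of the large subunit, had 92.3, 61.8 and 130 CPM against 68.9 and 57.9 CPM (log2 fold change -0.58). Mrps14 had 84.7, 56.6 and 110 CPM against 63.4 and 53.2 CPM (log2 fold change -0.52). Mrpl41, the gene second in level, had 114, 77.3 and 147 CPM against 90.0 and 75.01 CPM (log2 fold change -0.45). In each, control b lay between cko a and cko b. Without control c the log2 fold changes were -0.30, -0.30 and -0.24, and with the length and GC trend removed they were -0.42, -0.53 and -0.21. Over the other settings the values ranged from -0.81 to -0.23 for Mrpl20, -0.74 to -0.25 for Mrps14 and -0.66 to -0.05 for Mrpl41.

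Mrpl12, Mrpl58 and Mrps36, with functions beyond structure or outside the ribosome, had values below 0 with overlapping groups, as did most members. Mrpl12, the stalk protein that contacts translation factors, had a log2 fold change of -0.31, and Mrpl58, a peptidyl-tRNA hydrolase that rescues stalled ribosomes, one of -0.17. Mrps36, which works in the 2-oxoglutarate dehydrogenase complex and is not a subunit of the ribosome, stood at -0.39. Mrps30, a large-subunit protein despite its symbol, stood at -0.09. Mrps12, the counterpart of a bacterial decoding-centre protein, had a mean of 48.4 CPM in both groups and a log2 fold change of 0.00 (SE 0.19). The 5 proteins with other symbols all had values below 0: Aurkaip1 -0.43, Gadd45gip1 -0.27, Dap3 -0.22, Chchd1 -0.11 and Ptcd3 -0.09. Dap3, a GTP-binding protein of the small subunit, had 66.2, 66.2 and 72.2 CPM in the controls and 61.4 and 55.9 CPM in cko, with no overlap. The groups of Gadd45gip1 did not overlap either, and 13.7% of all genes tested had separate groups with cko lower.

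Lists of genes that make, feed and use the mitochondrial ribosome had 0 genes past the adjusted threshold in edgeR with the low-count filter. At an unadjusted p under 0.05 in edgeR, 5.45% of all genes tested were higher and 5.36% lower. The 15 genes of mitochondrial DNA tested had a median log2 fold change of -0.27, with 14 below 0, and 1 lower at an unadjusted p under 0.05. That gene was mt-Nd3, a subunit of complex I (log2 fold change -1.22, SE 0.44, edgeR adjusted p = 0.433). With no low-count filter mt-Nd3 was called (edgeR adjusted p = 0.000825), over the other settings its lowest adjusted p was 0.0921, and without control c its log2 fold change was -0.55. The ribosomal RNA genes mt-Rnr1 and mt-Rnr2, which form the RNA core of the ribosome, stood at -0.43 and -0.36, in libraries made by poly(A) selection. The 20 import genes tested had a median of -0.20, with 0 higher and 2 lower at an unadjusted p under 0.05, Pam16 (-0.72) and Tomm40 (-0.59), parts of the inner and outer membrane import machines.

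The lists acting on the ribosome itself lay nearer to the median of all genes. The 28 assembly factors tested had a median of -0.04, with 2 higher and 3 lower at an unadjusted p under 0.05. Among all genes tested the shares were 5.45% and 5.36%. Mrm1, an rRNA methyltransferase, had the smallest p among the assembly factors (log2 fold change -0.83, edgeR adjusted p = 0.430). The 15 translation factors had a median of 0.01 with 0 genes in either direction, and the 20 tRNA synthetases and related enzymes -0.03 with 1 higher, Gatc (0.69). The 13 genes of mitochondrial DNA maintenance and transcription had a median of -0.07 with 0 in either direction. Of 10 regulators of mitochondrial biogenesis, with a median of 0.19, 1 was higher (Sp1, 0.61) and 1 lower (Esrra, -0.68). The listed regulators whose motifs were searched above had log2 fold changes of 0.61 (Sp1), 0.20 (Nrf1), 0.22 (Gabpa) and -0.35 (Yy1).

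The sequence GGACT, a common context of N6-methyladenosine, was counted in the longest annotated transcript of each member. Members held a median of 2 and 8 of 77 held none (10.4%), against a median of 4 and 6.35% in the 14451 protein-coding genes tested. Their transcripts are shorter, and pooled per kilobase the members held 1 and the protein-coding genes 1.08. Mrps2 held 3, Mrps34 4, Mrpl43 2, Mrpl23 3, Mrps16 1 and Mrpl54 0. Methylation was not measured here, and a count of letters does not show that a site is methylated.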

How the data were processed

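RNA-seq of poly(A) RNA measured mouse retina, 3 controls and 2 titled Mettl14 cko; groups come from the titles. Per the labels' protocols, extraction used TRIzol and library preparation a NEBNext Ultra kit. The table that the authors deposited holds raw counts for each gene, not normalized. CASAVA, HISAT2, featureCounts and mm10 are named per the submitters' processing notes; for versions, annotation release, strand setting and multiply matched reads the value is not given in the sources used here. The number of per-sample columns not used was 0.

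Members and lists were chosen with earlier results of these data known. Symbols came from a gene name table (42462 of 43432 IDs matched) and coordinates, exons and transcript lengths from GENCODE M21, whose assembly, GRCm38, is that of mm10. Promoters came from RefSeq on GRCm38.p6.

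The test of the counts used edgeR 4.0.16 under R 4.3.3: filterByExpr (minimum count 10, minimum total 15; 17039 genes kept), TMM scaling, and a quasi-likelihood F test over all 5 libraries with no covariate. The Benjamini-Hochberg adjustment ran over every tested gene, with calls under 0.05. Fold changes are log2 of cko over control, and standard errors are their size over the root of F. CPM used TMM-scaled sizes; for log2 CPM the prior count was 2. Biological variation between libraries had a common coefficient of 0.216. On simulated data for cko against control with 17039 genes, 47.2% of 2-fold and 95.4% of 4-fold changes were recovered by edgeR, with 8.01% of its calls false. The simulation drew each gene independently, with no library pattern shared between genes, so these rates may not hold for these data. Depth was 24315693 to 27100918 counts per library. No pair of libraries agreed within sampling noise (chi-square per degree of freedom at least 26.7).

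Genes were named by rule: per subunit the 4 with the smallest p, the 2 largest differences in each direction among genes of at least 5 CPM, the 3 highest and the 1 lowest control level, members with special roles, the 5 proteins with other symbols, and the smallest p of each related list. Genes whose groups do not overlap, the other genes quoted with them, and the genes whose start regions are shown were chosen after their values were seen. Alternatives were other scalings and filters, DESeq2 1.42.0, limma-voom 3.58.1, robust edgeR, each library left out, a replicate block by title letter, and a trend on transcript length and GC content (mgcv 1.9.3) removed. Leaving out members that overlap another protein-coding gene was added after seeing the data.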

Additional observations from a re-analysis of the deposited data

How the results depend on the processing

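The count of members called was 0 in each direction under every setting run, at an adjusted p under 0.05 and under 0.01, while the calls over all genes ranged from 10 to 262 (17 in edgeR as reported, 85 with DESeq2, 262 with no low-count filter). The medians stayed below 0 in every setting, from -0.41 to -0.05 for Mrpl and from -0.37 to -0.04 for Mrps genes. Leaving out each library in turn gave -0.41 to -0.07 and -0.37 to -0.09; without 1 of the 2 cko libraries, the lone one is assumed to vary like the controls. Without cko a the medians were -0.41 and -0.29, without cko b -0.07 and -0.09, without control b -0.35 and -0.37, and without control c -0.15 and -0.10. Without control a, 1 member was higher and 0 lower at an unadjusted p under 0.05 in edgeR, against 1.59% and 2.64% of all genes. With no scaling of library totals, the median over all genes was 0.05 and the members' -0.15. Members that overlap no other protein-coding gene had medians of -0.22 and -0.26.

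The letters of the titles are not stated to pair libraries. Deviations of same-letter libraries correlated at -0.00676 (a) and 0.149 (b) over 17039 genes. Those of control c and cko a, with different letters, correlated at 0.137. With 2 cko libraries, the 2 correlations of each control are equal in size and opposite in sign. Control b and cko b were also closer to each other (chi-square per degree of freedom 27.1) than cko a and cko b (52.8). Control a and cko a, which also share a letter, were farther apart (62), and controls a and b were close (26.7). With 2 pairs and no label that pairs them, the libraries were not treated as paired. With the letter as a replicate block, the medians were -0.12 and -0.08, 47 members were below 0, 3 were higher and 2 lower at an unadjusted p under 0.05 (against 4.32% and 5.53% of all genes), and 0 of the members and 39 of all genes were called in edgeR. With the length and GC trend also removed, the medians were -0.05 and -0.04.

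Of 544 values of 34 named genes over 16 settings, 526 kept their direction and side of the threshold, and 17 in 9 genes changed sign. The tally covers the genes named by rule and not the others quoted. Among those others, Mrpl46 ranged from -0.30 to 0.44 over the settings and Mrps11 from -0.01 to 0.45. With the replicate block, Chchd1 was at 0.17 and Ptcd3 at 0.048. With the length and GC trend removed, Chchd1 was at 0.069, Mrpl2 at 0.20 and Mrps18b at 0.051. With both, Chchd1 was at 0.20, Mrpl12 at 0.081, Mrpl2 at 0.12, Mrpl54 at 0.0025, Mrps24 at 0.028 and Mrps28 at 0.058. Leaving out 1 library gave ranges of -0.32 to 0.13 for Chchd1, where the sign changed without control c, -0.32 to 0.10 for Ptcd3 (0.038 without control c, 0.10 without cko b), -0.38 to 0.00033 for Mrpl2, -0.47 to 0.15 for Mrps18b and -0.19 to 0.013 for Mrps30, all 3 without cko b. The cause was not tested. With 3 against 2 libraries, the 95% intervals of single members are wide: that of Mrps12, at a log2 fold change of 0.00, runs from -0.42 to 0.42.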

Other observations

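For 19 members the start of a gene on the opposite strand lies within 1000 bases, facing away, so that both may share a start region. Mrps34 and Eme2, a subunit of a DNA endonuclease, start 29 bases apart and lay on opposite sides of 0: the log2 fold change was 0.70 for Mrps34 and -0.56 for Eme2, whose groups did not overlap (13.0, 12.5 and 11.3 CPM in controls a, b and c, 9.61 and 7.09 CPM in cko a and b). Mrps18c and Helq, a DNA helicase, also start 29 bases apart, with -0.28 and 0.50, and the groups of Helq did not overlap. Mrpl49 and Fau, which encodes a protein of the cytosolic ribosome, start 59 bases apart and were both below 0 (-0.25 and -0.58). Mrpl36 and Ndufs6, a subunit of complex I, had -0.48 and -0.56, and their exons overlap by 30 bases. Mrps12 and Sars2, the mitochondrial seryl-tRNA synthetase, had 0.00 and -0.01. None of these partners passed the adjusted threshold in edgeR, and the difference within a pair was not tested. These pairs were chosen after their values were seen.

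Mrpl46 and Mrps11, a large- and a small-subunit gene on opposite strands, share 173 exon bases. Mrpl46 had 53.5, 39.6 and 85.7 CPM in controls a, b and c and 57.9 and 55.01 CPM in cko a and b, and Mrps11 had 30.8, 36.7 and 29.3 CPM and 40.9 and 32.1 CPM. Among the controls, Mrpl46 was highest in c and lowest in b, and Mrps11 highest in b and lowest in c. Of the 76 members, 5 had the control order b over a over c (6.58%, against 29.1% of all genes tested).

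The pseudogene Mrpl48-ps, left out by the rule, held 59, 59 and 54 counts in the controls and 27 and 36 in cko.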
